A study of Mus musculus with 6 samples.

Results

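Transcript levels of 9 genes of the spectrin and ankyrin membrane skeleton were examined in newborn mouse lenses in which Celf1 had been targeted (Celf1cKO) and in control lenses. The genes were Sptan1, Sptbn1, Ank2, Ank3, Epb41, Epb41l1, Epb41l2, Add1 and Add3. They were chosen as a named list and matched by gene symbol, and all 9 were found among the 13931 genes in the deposited table. RNA-seq libraries were made from whole lenses at postnatal day 0, with 3 control and 3 Celf1cKO libraries, each from a pool of 2 lenses according to the methods of the study. Celf1 encodes an RNA-binding protein. The Celf1cKO lenses carried 1 germline knockout allele, Celf1lacZKI, and 1 conditional allele, Celf1flox, whose exon 5 is removed by Cre recombinase. Cre came from Pax6GFPCre, which is active in the lens from the placode stage and in the pancreatic lineage, and the mice were of a mixed C57BL/6 and FVB background. For the controls, the sample labels read Celf1lacZKI/+, a genotype with 1 copy of the knockout allele that the Celf1cKO lenses also carry, whereas the methods name Celf1flox mice without Cre, so the control genotype was not settled here.

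The spectrin-based skeleton is a protein lattice on the inner face of the plasma membrane. Rod-like tetramers of alpha and beta spectrin are joined by short actin filaments at nodes that hold protein 4.1 and adducin, and ankyrins tie beta spectrin to the cytoplasmic tails of membrane proteins. It was first worked out in the red blood cell, and in the lens it lines the membranes of the elongated fiber cells, where it is known for helping to keep their shape and regular packing.

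Of the 9 genes, 1 differed between genotypes. Ank3, which encodes ankyrin-G, was reduced in Celf1cKO lenses, with a log2 fold-change of -0.91, a change of -46.7%. A gene was called where its adjusted p was under 0.05, its log2 fold-change was beyond 0.58 in either direction and its mean log2 CPM (log2 of counts scaled to the size of the library) was above 1. By this rule 7.25% of all genes tested were called, with 2.56% of all genes reduced and 4.69% elevated. The median log2 fold-change of the 9 genes was -0.10, against -0.04 over all genes. Both spectrins, Ank2, the 3 protein 4.1 genes and both adducins did not pass the test.

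**Figure D1:**
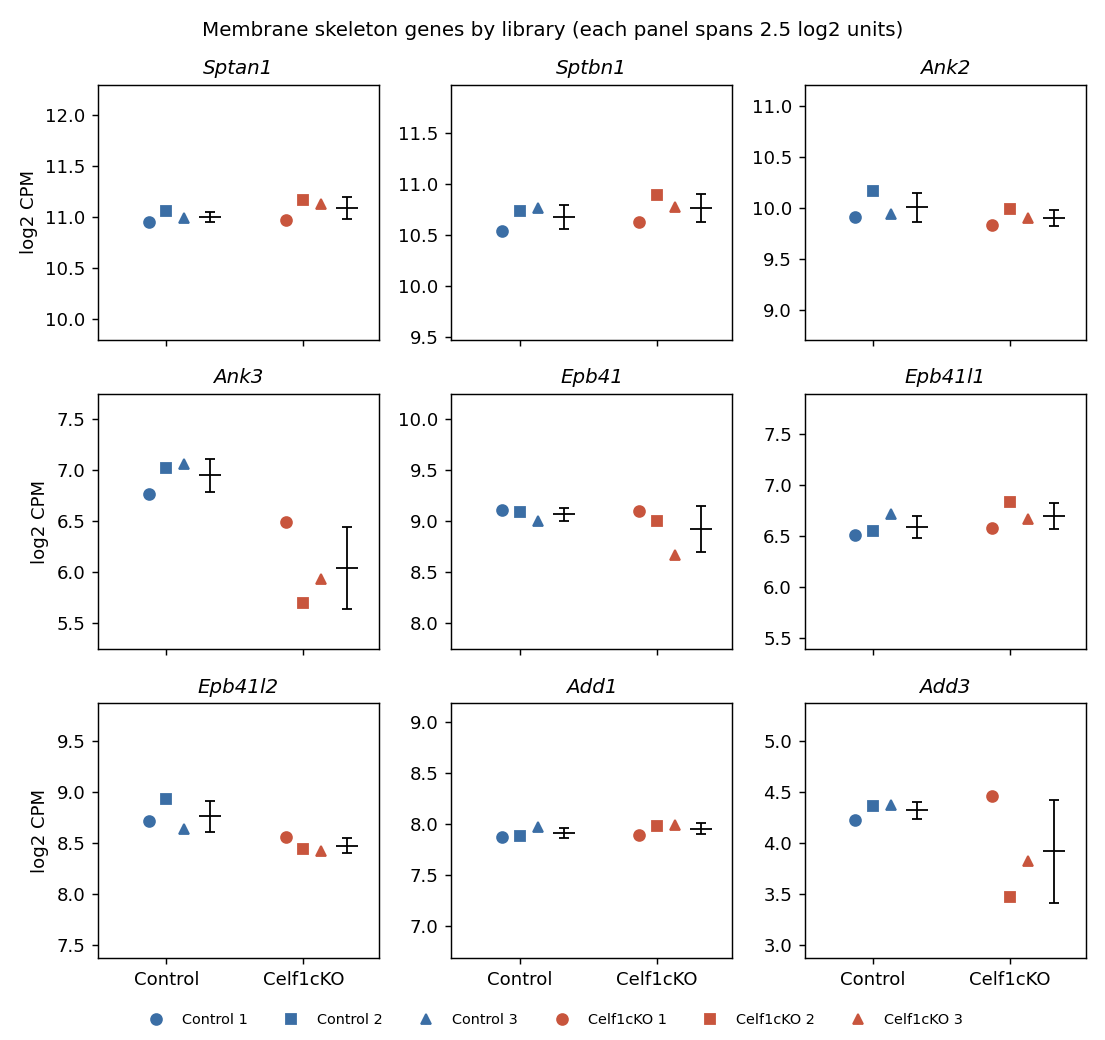
Log2 CPM (y axis) of the 9 genes in each control (blue) and Celf1cKO (red) library, with marker shapes for the library number and a black bar for the mean ± SD of 3 libraries. Every panel spans 2.5 log2 units. In the Ank3 and Epb41l2 panels all red points lie below all blue points, and in the other panels the groups overlap.

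The libraries held between 40694454 and 44387151 counted reads. After the normalization of the authors their effective sizes were 37164946 to 49251307 reads, on which the smallest level of 3 reads corresponded to 0.0609 to 0.0807 CPM. The 9 genes had between 536 reads (Add3, in 1 library) and 112210 reads (Sptan1, in 1 library), and the spread between libraries rather than the depth set the precision. Celf1 itself stood at 9.74 ± 0.35 log2 CPM in controls and 8.14 ± 0.69 in Celf1cKO lenses (SD, n = 3 per group), a log2 fold-change of -1.60 (SE 0.33, adjusted p = 0.0269). Its adjusted p ranged from 0.00250 without Celf1cKO library 1 to 0.108 without Celf1cKO library 3, and it was called in 1 of the 6 fits that left out a library. The Celf1cKO libraries were unequal in this respect, at 8.93, 7.66 and 7.83 log2 CPM for Celf1 in libraries 1, 2 and 3, against 9.95, 9.94 and 9.34 in the controls. Fiber cell markers were abundant throughout, with 7 of 8 present and a sum of 208180 to 235134 CPM in controls and 160785 to 172035 CPM in Celf1cKO lenses. The 6 lens epithelial markers, all present, summed to 590 to 620 CPM in controls and to 492, 180 and 373 CPM in Celf1cKO libraries 1, 2 and 3. Endothelial markers, with 5 of 5 present, summed to 67.9 to 93.0 CPM in controls and to 90.2, 8.42 and 37.2 CPM in the same Celf1cKO libraries.

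Because spectrins work as partners in 1 tetramer, the start regions of Sptan1 and Sptbn1 are shown before their values. The windows run from 250 bases before to 50 bases after an annotated RefSeq start on GRCm38.p6, written 5′ to 3′ on the strand of the gene, and capitals mark the GC box letters GGGCGG on either strand. The Sptan1 window is chr2:29965310-29965609 on the plus strand. The Sptbn1 windows are chr11:30219723-30220022 (a) and chr11:30198208-30198507 (b), both on the minus strand.
Sptan1: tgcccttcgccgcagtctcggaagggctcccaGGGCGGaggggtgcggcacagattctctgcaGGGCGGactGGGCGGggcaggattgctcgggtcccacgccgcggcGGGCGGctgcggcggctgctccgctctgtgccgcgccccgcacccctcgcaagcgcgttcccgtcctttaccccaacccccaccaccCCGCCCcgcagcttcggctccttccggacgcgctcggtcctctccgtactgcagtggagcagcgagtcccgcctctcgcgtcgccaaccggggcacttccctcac
Sptbn1 a: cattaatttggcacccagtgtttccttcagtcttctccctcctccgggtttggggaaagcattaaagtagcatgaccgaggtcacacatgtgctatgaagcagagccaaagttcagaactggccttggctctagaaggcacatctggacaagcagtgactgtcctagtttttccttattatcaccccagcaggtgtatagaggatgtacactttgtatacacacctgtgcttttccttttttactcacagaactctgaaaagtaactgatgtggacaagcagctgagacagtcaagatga
Sptbn1 b: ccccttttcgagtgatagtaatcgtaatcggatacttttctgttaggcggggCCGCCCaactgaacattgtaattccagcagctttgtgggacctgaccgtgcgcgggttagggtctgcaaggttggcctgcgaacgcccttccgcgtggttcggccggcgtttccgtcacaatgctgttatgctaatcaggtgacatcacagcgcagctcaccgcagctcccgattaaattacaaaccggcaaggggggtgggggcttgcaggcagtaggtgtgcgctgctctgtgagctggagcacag
The Sptan1 window held 5 GC boxes and those of Sptbn1 held 0 and 1. RefSeq windows were found for 8 of the 9 genes, 18 windows in all, and not for Ank3. A GC box lay in 8 of the 18, or 44.4%, against 60.9% of 13877 windows over all genes. The TATA box letters TATAAA, also searched on both strands, lay in 2 of the 18 windows, of Ank2 and Add3, against 7.31% over all genes. These matches describe the letters only.

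Alpha spectrin in the lens comes from Sptan1 (ENSMUSG00000057738; chr2:29965560-30031451, plus strand, GRCm38), which encodes the non-erythroid alpha chain. Its log2 CPM was 10.96, 11.06 and 10.99 in control libraries 1, 2 and 3, and 10.97, 11.17 and 11.13 in Celf1cKO libraries 1, 2 and 3. The groups overlapped, since Celf1cKO library 1 lay between 2 of the controls. The log2 fold-change was 0.09 (SE 0.10, 95% interval -0.15 to 0.33, adjusted p = 0.586). Sptbn1 (ENSMUSG00000020315; chr11:30099395-30268175, minus strand) encodes its non-erythroid beta partner. It stood at 10.54, 10.73 and 10.76 log2 CPM in controls and at 10.62, 10.89 and 10.78 in Celf1cKO lenses. The groups overlapped again, and the log2 fold-change was 0.09 (SE 0.11, 95% interval -0.18 to 0.35, adjusted p = 0.652).

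The difference Sptan1 minus Sptbn1 within a library does not depend on how libraries are scaled. On the log2 scale it was 0.42, 0.33 and 0.23 in controls and 0.35, 0.28 and 0.36 in Celf1cKO lenses. The mean was 0.33 in both groups (SD 0.09 and 0.04, n = 3 each), with a difference of 0.0047 (exact permutation test, two-sided, p = 1, the 5 such ratios tested together). The sign of so small a difference turned without control library 3, Celf1cKO library 1 or Celf1cKO library 3, at values between -0.042 and -0.0057. Across the 6 libraries, which share the 2 genotypes, the log2 CPM of Sptan1 and Sptbn1 had a Pearson correlation of 0.86, given as a description. Of 10529 genes with a mean log2 CPM above 1, those most alike to Sptan1 by this measure were Dmtn (0.999), Drg1 (0.997), Coa7 (0.993), Ulk2 (0.992) and Zbtb25 (0.992). Those most alike to Sptbn1 were Rars2 (0.994), Crem (0.994), Aldh18a1 (0.991), Jrkl (0.989) and Tmem170 (0.986).

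Of the ankyrins, which link spectrin to membrane proteins, Ank2 (ENSMUSG00000032826; chr3:126921612-127499350, minus strand) encodes ankyrin-B and stood at 9.91, 10.17 and 9.94 log2 CPM in controls and at 9.83, 9.99 and 9.90 in Celf1cKO lenses. The ranges overlapped and the log2 fold-change was -0.10 (SE 0.10, 95% interval -0.34 to 0.14, adjusted p = 0.552). Its sign turned under quantile normalization (0.01) and under scaling by total counts (0.13), which raised the median of all expressed genes by 0.23.

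Ank3 (ENSMUSG00000069601; chr10:69398773-70027438, plus strand) had 4161, 4803 and 5247 reads in controls and 3849, 2520 and 2999 reads in Celf1cKO lenses. In log2 CPM these were 6.76, 7.01 and 7.06 against 6.49, 5.70 and 5.93. All 3 Celf1cKO libraries lay below all 3 controls, and Celf1cKO library 1 lay closest to them. Groups without overlap were seen for 2 of the 9 genes, both with Celf1cKO below, and for 36.5% of all genes, of which 17.0% of all genes had Celf1cKO below and 19.5% above. The mean fell from 6.95 ± 0.16 to 6.04 ± 0.41 (SD, n = 3 each), and the log2 fold-change was -0.91 (SE 0.20, 95% interval -1.37 to -0.45, limma with Benjamini-Hochberg adjustment, adjusted p = 0.0306). Under scaling by total counts it was -0.68, which is -0.91 relative to the shift of 0.23.

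The Ank3 call rested on all libraries but 1. The adjusted p was 0.00329 without Celf1cKO library 1, and it was 0.0683 without Celf1cKO library 2, 0.119 without Celf1cKO library 3, and 0.0596, 0.108 and 0.0958 without control libraries 1, 2 and 3. Its log2 fold-change stayed between -1.13 and -0.74 in these 6 fits. Over the whole table the same 6 fits called between 1 gene (without Celf1cKO library 3, and likewise without control library 2) and 1878 genes (without Celf1cKO library 1). The 3 Celf1cKO libraries had the same order in Ank3 as in the summed epithelial markers. That order was not particular to these markers. It was also seen in Celf1 and in the fiber and endothelial marker sums, though not in every marker sum. Of the 6 epithelial markers, 2 were called as reduced, Foxe3 (-2.01 on the log2 scale) and Pdgfra (-1.54). The part of the epithelial markers in the Ank3 difference was not tested. In whole lenses, fewer cells of a type and less RNA per cell cannot be told apart.

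**Figure D2:**
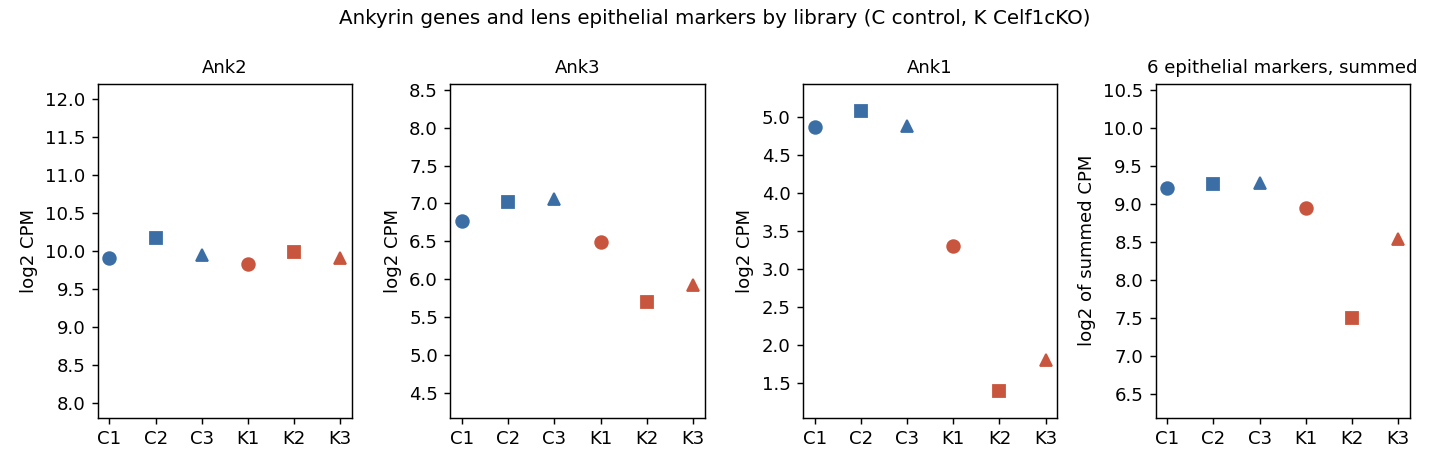
Log2 CPM of Ank2, Ank3 and Ank1, and log2 of the summed CPM of 6 lens epithelial markers, in control libraries 1 to 3 (C, blue) and Celf1cKO libraries 1 to 3 (K, red), each panel spanning the same range. Ank2 lies level across libraries, while Ank3, Ank1 and the marker sum are lower in each Celf1cKO library than in every control, least so in library 1.

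Within a library, Ank2 minus Ank3 was 3.14, 3.16 and 2.88 on the log2 scale in controls and 3.35, 4.29 and 3.97 in Celf1cKO lenses. The Celf1cKO ratios lay above those of all controls. The mean rose from 3.06 ± 0.15 to 3.87 ± 0.48, or from 8.35-fold to 14.6-fold more Ank2 than Ank3 reads. The difference of 0.81 had p = 0.1 by an exact permutation test, which is the smallest that 3 libraries against 3 allow, and an adjusted p of 0.5 over the 5 ratios, so this design could not pass 0.05. Both genes have exon lengths close to 35 kb (35.0 kb for Ank2 and 34.8 kb for Ank3), with 27 and 47 annotated transcripts. Counts per gene do not tell apart the giant and short isoforms for which these ankyrins are known.

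The protein 4.1 family strengthens the bond between spectrin and actin. Epb41 (ENSMUSG00000028906; chr4:131923413-132075321, minus strand), which encodes protein 4.1R, stood at 9.12, 9.09 and 9.0 log2 CPM in controls and at 9.10, 9.01 and 8.67 in Celf1cKO lenses. The ranges overlapped, with Celf1cKO library 3 lowest (log2 fold-change -0.15, SE 0.12, adjusted p = 0.462), and the sign turned under scaling by total counts (0.08). Epb41l1 (ENSMUSG00000027624; chr2:156420909-156543214, plus strand), which encodes 4.1N, stood at 6.51, 6.55 and 6.71 in controls and at 6.58, 6.83 and 6.66 in Celf1cKO lenses. These ranges overlapped too (log2 fold-change 0.10, SE 0.10, adjusted p = 0.515).

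Epb41l2 (ENSMUSG00000019978; chr10:25359798-25523519, plus strand) encodes 4.1G and was the other gene of the 9 whose groups did not overlap. Its log2 CPM was 8.72, 8.93 and 8.64 in controls and 8.56, 8.44 and 8.42 in Celf1cKO lenses, the latter all lower. The log2 fold-change was -0.29 (SE 0.10, 95% interval -0.52 to -0.06), but the unadjusted p of 0.0216 became 0.102 after Benjamini-Hochberg adjustment over all genes in limma. Under scaling by total counts the log2 fold-change was -0.06 (adjusted p = 0.587), and under quantile normalization it was -0.32 (adjusted p = 0.0297), still short of the fold-change cut-off. An unadjusted p under 0.05 was given by 2 of the 9 genes, Ank3 and Epb41l2, and by 29.9% of all genes. Within libraries, Epb41l2 minus Epb41 changed from -0.31 ± 0.13 to -0.45 ± 0.18 and Epb41l1 minus Epb41 from -2.48 ± 0.17 to -2.23 ± 0.26 (exact permutation p = 0.3 and 0.2, both 0.5 after adjustment).

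Adducins cap actin filaments and recruit spectrin to them. Add1 (ENSMUSG00000029106; chr5:34573664-34632308, plus strand), the alpha subunit, stood at 7.88, 7.88 and 7.97 log2 CPM in controls and at 7.89, 7.98 and 7.99 in Celf1cKO lenses. Its SE was the smallest of the 9 genes, and the log2 fold-change was 0.04 (SE 0.07, 95% interval -0.13 to 0.22, adjusted p = 0.740), and turned to -0.05 under quantile normalization. Add3 (ENSMUSG00000025026; chr19:53140443-53247399, plus strand), the gamma subunit, stood at 4.22, 4.37 and 4.38 in controls and at 4.47, 3.47 and 3.83 in Celf1cKO lenses. Celf1cKO library 1 lay above every control and libraries 2 and 3 lay below them, so the groups overlapped and the log2 fold-change of -0.40 (SE 0.24, 95% interval -0.96 to 0.16) did not pass the test (adjusted p = 0.295). Without Celf1cKO library 1 it was -0.67 with an adjusted p of 0.0225, and Add3 was then called, whereas without Celf1cKO library 2 it was -0.18 with an adjusted p of 0.666. Add1 minus Add3 was 3.59 ± 0.07 in controls and 4.03 ± 0.56 in Celf1cKO lenses (exact permutation p = 0.4, adjusted 0.5).

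**Figure D3:**
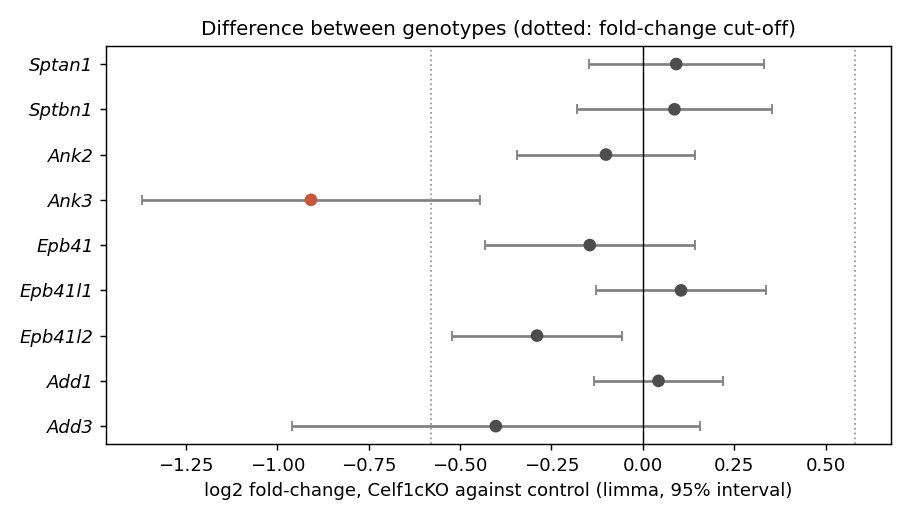
Log2 fold-change of Celf1cKO against control lenses for the 9 genes (limma, bars are 95% intervals), with dotted lines at the fold-change cut-off of 0.58. Ank3 (red) is the called gene. The intervals of Ank3 and Epb41l2 lie below 0 and the other 7 include 0.

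Levels of different genes were compared as CPM per kb of exon, counting the exons of all annotated transcripts of a gene together. Which isoforms the lenses made was not measured. Where mainly short isoforms are made, as could hold for Ank2 and Ank3, this length gives too low a level, so the order below depends on it. In controls Sptan1 was the most abundant, at 154 ± 5.5 CPM per kb (SD, n = 3), and Sptbn1 followed at 93.8 ± 7.6. Epb41l2 (36.8 ± 4.0), Epb41 (33.7 ± 1.4), Ank2 (29.5 ± 3.0) and Add1 (28.1 ± 1.0) formed a middle group in which no neighbours were separated by their ranges. Epb41l1 (8.36 ± 0.64) was set apart from those above and below it, and Ank3 (3.55 ± 0.38) and Add3 (3.13 ± 0.18) were lowest and not separated from each other. In Celf1cKO lenses the spectrins were again highest, at 164 ± 12 and 99.6 ± 9.2 CPM per kb. Ank3, at 1.94 ± 0.57, came below Add3, at 2.47 ± 0.89, but their ranges overlapped.

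**Figure D4:**
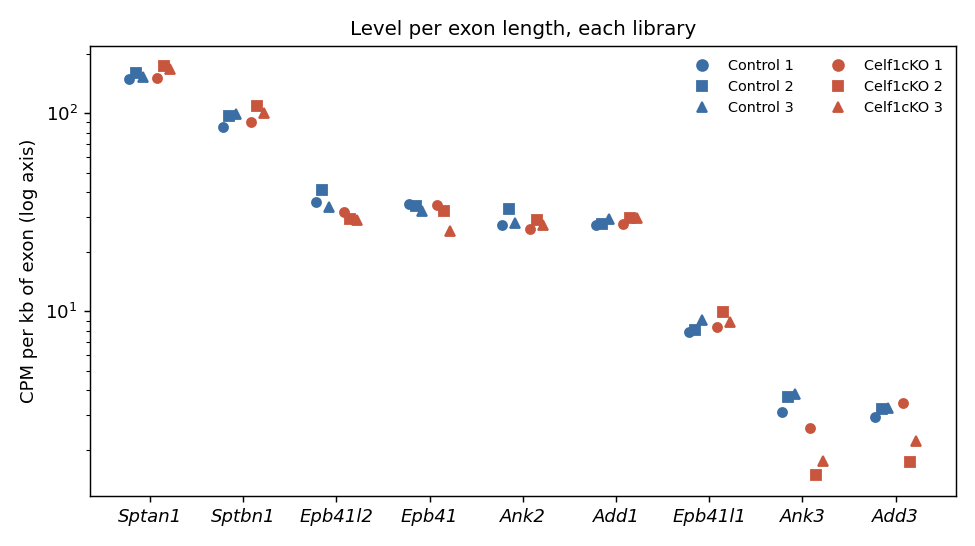
CPM per kb of exon (log axis) for the 9 genes, ordered by their control mean, with 1 point for each control (blue) and Celf1cKO (red) library. Sptan1 and Sptbn1 stand above all other genes, and Ank3 and Add3 are the lowest, by the length of all annotated exons together.

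The rest of the skeleton was followed in 56 further genes in 5 lists, of which 53 were in the table. Of these 53, 6 were called as elevated and 3 as reduced, together 17.0%, against 7.25% of all genes, of which 4.69% of all genes were elevated and 2.56% reduced. The 7.25% includes genes below the expression cut-off, whereas 49 of the 53 were above it. A fit on only the 10529 genes above it called 10.4% of them, and again 9 of the further genes. Because the lists were chosen with earlier results of these data known, the higher share among them is not evidence about the skeleton. The same holds for the counts within each list given below. The median log2 fold-change of the 53 was -0.05. The number called was 17 without Celf1cKO library 1, a fit that called 13.5% of all genes, 4 without Celf1cKO library 2, 0 without Celf1cKO library 3, and 5, 0 and 2 without control libraries 1, 2 and 3, and it was 3 without a variance trend. Of the spectrin, ankyrin, adducin and protein 4.1 relatives, 3 of 12 were called. Ank1, which encodes the ankyrin first found in red cells, stood at 4.87, 5.09 and 4.89 log2 CPM in controls and at 3.30, 1.40 and 1.80 in Celf1cKO lenses. All Celf1cKO libraries lay far below the controls, and with 126 to 1264 reads a library the log2 fold-change was -2.78 (SE 0.44, adjusted p = 0.0142). It was not called without Celf1cKO library 3 or without control library 2 or 3, where the adjusted p reached at most 0.0749. The distant protein 4.1 relatives Epb41l4b (0.93, adjusted p = 0.0440) and Epb41l5 (0.92, adjusted p = 0.0349) were elevated, and each was called in 1 of the 6 fits that left out a library.

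Sptb, the beta spectrin known from red cells, was the most highly expressed relative by log2 CPM, at 66.1 ± 5.6 CPM per kb in controls. Alas2, an erythroid enzyme gene, stood at -1.07 to 0.48 log2 CPM in controls and -3.50 to -0.90 in Celf1cKO lenses, and 4 of the 11 erythroid markers were in the table. Sptb stood at 9.76, 9.52 and 9.65 log2 CPM in controls and at 9.57, 9.03 and 8.99 in Celf1cKO lenses, ranges that overlapped through Celf1cKO library 1 (log2 fold-change -0.45, SE 0.16, adjusted p = 0.115). Without that library it was called as reduced, with an adjusted p of 0.00865, against up to 0.314 without another library.

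Among the 11 genes of the actin nodes, 1 was called, or 9.09%, against 7.25% of all genes. Capza1, a subunit of the protein that caps the fast-growing filament end, was elevated by 1.06 on the log2 scale (SE 0.21, adjusted p = 0.0223), from 5.06, 4.53 and 4.33 log2 CPM in controls to 5.46, 5.95 and 5.68, without overlap. It was not called without Celf1cKO library 2 or 3 or control library 2 or 3 (adjusted p from 0.0626 to 0.0938), nor without a variance trend (0.0616). Its partner subunit genes Capza2 (0.04) and Capzb (-0.05) did not pass the test. For Actb, the beta-actin gene and the most highly expressed of the list by log2 CPM, the log2 fold-change was -0.43 (adjusted p = 0.0194), and for Tmod1, which caps the other filament end, it was -0.45 (adjusted p = 0.0361), both short of the fold-change cut-off. Under scaling by total counts these became -0.20 (adjusted p = 0.135) and -0.22 (0.104), and leaving out a library raised the adjusted p to at most 0.115 and 0.150. In all 3 Celf1cKO libraries Actb and Tmod1 lay below every control, as was seen for 17.0% of all genes. Their relatives in the list did not share this direction throughout. Actg1 (0.26, adjusted p = 0.0711) and Tmod2 (0.47, adjusted p = 0.0612) were not called. Both lay above every control in all 3 Celf1cKO libraries, as was seen for 19.5% of all genes. For Tmod3 the groups overlapped (-0.15, adjusted p = 0.696).

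Of the 13 membrane proteins and transporters of the anchor list in the table, 1 was called, or 7.69%, against 7.25% of all genes. Nfasc, which encodes neurofascin, a cell adhesion molecule of the L1 family known to bind ankyrin-G, stood at 5.06, 4.82 and 4.65 log2 CPM in controls and at 4.05, 3.38 and 3.49 in Celf1cKO lenses. The groups did not overlap, with Celf1cKO below, as was seen for 17.0% of all genes. The log2 fold-change was -1.20 (SE 0.20, adjusted p = 0.0154). It was not called without Celf1cKO library 3 (adjusted p = 0.0798) or without control library 2 (0.0654). Nrcam, of the same family and the most highly expressed of the list by log2 CPM, had a log2 fold-change of 0.28 (SE 0.12, adjusted p = 0.174).

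Of the 6 fiber cell partners, 1 was called, or 16.7%, against 7.25% of all genes. Bfsp1, which encodes filensin, a subunit of the beaded filament of fiber cells, fell by 1.47 on the log2 scale (SE 0.23, adjusted p = 0.0139), from 13.00, 13.24 and 12.91 log2 CPM in controls to 12.08, 11.24 and 11.42. It was not called without Celf1cKO library 3 (adjusted p = 0.0784) or without control library 2 (0.0634). Mip, the fiber cell water channel and the most highly expressed of the list by log2 CPM, differed by -0.37 without passing the test (SE 0.17, adjusted p = 0.188), and quantile normalization turned it to 0.40.

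Of the 11 proteases, calmodulins and scaffolds that act on spectrin, 3 were called, all elevated. This was 27.3%, against 7.25% of all genes called and 4.69% of all genes elevated, in a list chosen with earlier results known. Calmodulin binds alpha spectrin and protein 4.1, and Calm2 rose by 0.72 (SE 0.12, adjusted p = 0.0160), while the value for Calm3 was 0.02 (adjusted p = 0.907). Calm2 was not called without Celf1cKO library 3 or control library 2 or 3 (adjusted p = 0.0836, 0.0620 and 0.0543), nor without a variance trend (0.0536). Capns1, the small subunit of calpains, proteases that cleave spectrin, stood 0.55 higher (adjusted p = 0.0160, and up to 0.0874 without 1 library). This was just short of the fold-change cut-off, which it passed at 0.77 under scaling by total counts. The other calpain genes of the list, Capn1 (-0.36), Capn2 (-0.05) and Capn3 (-0.43), did not pass the test (adjusted p = 0.464, 0.777 and 0.237). Cast, the calpain inhibitor of the list, stood 0.48 higher (adjusted p = 0.0518) and was not called. The libraries of the groups did not overlap for Calm2, Capns1 or Cast, with Celf1cKO above, as was seen for 19.5% of all genes.

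**Figure D5:**
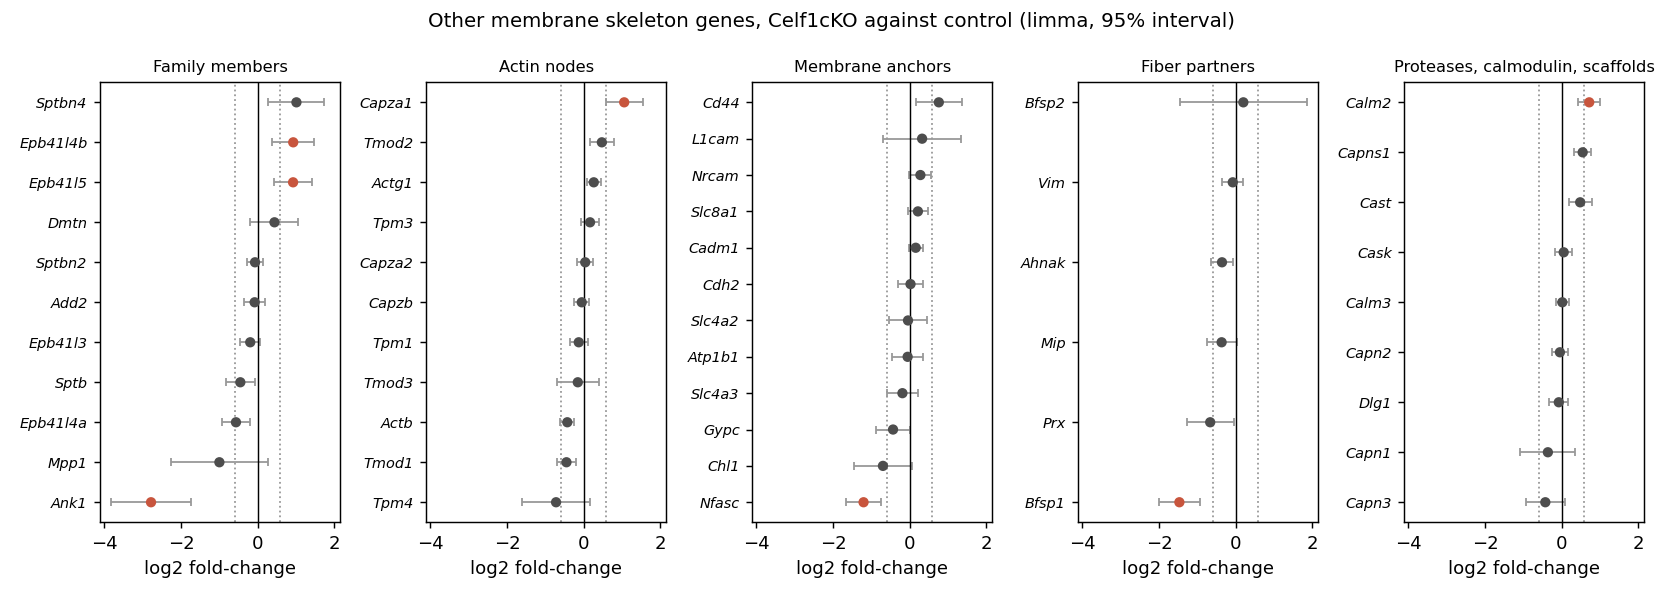
Log2 fold-change of Celf1cKO against control lenses (x axis) for 49 of the 53 further skeleton genes in 5 lists (limma, bars are 95% intervals), with called genes in red and dotted lines at the cut-off of 0.58. Ank1, Nfasc and Bfsp1 are the called genes left of 0, and the other 4 drawn lie right of it. Not drawn are 4 genes, 2 of them called as elevated.

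CELF1 binds RNA rich in U and G, often in the 3′ UTR. The 11-base GU-rich element known as the GRE and an 11-base run of alternating U and G were searched on the strand of the gene. Only 1 annotated 3′ UTR per gene was searched, that of the coding transcript with the longest coding sequence. Neither was found in those of the 9 genes, whereas 3.69% and 7.63% of 12956 genes had them. The searched 3′ UTRs of the 9 genes ran from 88 bases (Sptan1) to 3394 bases (Epb41l1), and those of their other transcripts were not searched. This says only that these letters are not in these regions.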

How the data were processed

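RNA-seq measured 3 control and 3 Celf1cKO libraries of whole newborn lenses. Reads were paired-end, 150 bp and strand-specific. The authors aligned them with STAR (version 2.7.8a) to GRCm38.p6 and counted them per gene with featureCounts (version 2.0.0), as the submitters' processing notes list. The strand setting of the counting is not given in the sources used here. After edgeR normalization the authors deposited log2 CPM values for each library, and all columns of single libraries were used (0 unused). The deposited table also holds the authors' log2 fold-change, average log2 CPM, F score, p-value and FDR, which were not used.

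Groups and replicate numbers came from the labels. The genes and lists were chosen with earlier results of these data known. Differences were tested on the deposited values with limma (version 3.58.1, R 4.3.3), with a variance trend (prior degrees of freedom 3.4), no block, and Benjamini-Hochberg adjustment over all 13931 genes. Thresholds followed the study, with the mean of the 6 libraries for expression. Single ratios were compared by two-sided exact permutation tests. Read numbers were recovered from the even spacing of the values, and 100% came out whole within 0.05. On simulated data for this comparison, 200 of 13931 genes were changed by 1.5 (log2). Of these, 100% and 98% were recovered at dispersions of 0.01 and 0.05, with 0% and 5.31% false calls. Smaller changes, such as the -0.91 of Ank3, were not simulated. Whether these dispersions match the spread of the real libraries was not tested. The simulated rates therefore do not give the recovery or the false calls of the real comparison. Where nothing says that the pools came from separate litters, p-values measure the spread between these libraries only. Intervals and the 3-read floor cover the stated error only.

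Same-numbered libraries of the 2 groups deviated together (correlations 0.26, 0.39 and 0.38, and -0.39 to -0.0053 for other pairs). The labels give only a replicate number and do not say that libraries were paired. The main fit and the permutation tests therefore took the libraries as unpaired, and a fit with the replicate block is an alternative. For the ratios, a sign-flip test over 3 pairs cannot give a p below 0.25. Any 2 libraries of a group differed by more than counting noise. Other alternatives were no variance trend, robust empirical Bayes, log2(CPM + 1), median centring, quantile normalization, total-count scaling, limma voom on the recovered reads, other thresholds and each library left out.

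Positions, exon lengths and 3′ UTRs came from GENCODE M21, in which 13928 gene identifiers were found. No 2 of the 9 genes share a 50-base stretch, and overlaps with other annotated genes take up at most 0.891% of their exon bases. The named genes are all 9, every called gene of the further lists, the most highly expressed gene of each list, Celf1, and the 5 genes most alike to each of Sptan1 and Sptbn1. Alas2, Capza2, Capzb, Actg1, Tmod1, Tmod2, Tmod3, Calm3, Capns1, Capn1, Capn2, Capn3, Cast, Foxe3 and Pdgfra were named after their values were seen. Some genes that this rule covers are counted but not reported here. Figures were drawn with matplotlib 3.10.9.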

Additional observations from a re-analysis of the deposited data

How the results depend on the processing

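Of 153 values of the 9 genes under the alternatives, 142 kept their direction and their side of the threshold, 6 lost the call, all of Ank3, and 1 gained it. The 142 are no measure of robustness. Several alternatives, such as the replicate block and other thresholds, leave the log2 fold-change as it was, and genes that stayed uncalled count as kept. With the replicate block, 1 of the 9 genes was called, again Ank3 (adjusted p = 0.0370), and 11 of the further genes, now including Tpm4. The block changed no other call of the genes named. Epb41l4b was not called under median centring. The 9 genes gave 0 calls without a variance trend, where Ank3 had an adjusted p of 0.0745, and 0 to 2 calls when a library was left out. The further genes gave 9 calls, 3 without a variance trend, 14 under total-count scaling and 0 to 17 when a library was left out. Over all genes the 1010 calls became 412 without a variance trend and 1846 under total-count scaling, of which 1650 were elevated and 196 reduced, against 654 and 356. Signs turned for Ank2 (0.012 under quantile normalization, 0.13 under total-count scaling), Epb41 (0.081 under total-count scaling), Add1 (-0.049) and Mip (0.40) under quantile normalization, and for Sptan1 minus Sptbn1 when a library was left out (-0.042 to 0.051). The cause of these changes was not tested. The 9 genes had at least 536 reads in every library.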
